A study of Mus musculus with 24 samples.

Results

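The genes described here encode the machinery of oxidative phosphorylation, and they come from 2 genomes. They were chosen by name from the 55401 genes of the count table. Nuclear genes whose name starts with Nduf, Sdh, Uqcr, Cox4 to Cox8 or Atp5 were taken if they held at least 240 counts over the 24 libraries and no "-ps" in the name. The protein genes of the mitochondrial genome (mt-Nd, mt-Co, mt-Cytb and mt-Atp) were taken whatever their count. This gave 102 genes, 89 nuclear and 13 mitochondrially encoded. The nuclear genes comprised 44 for complex I, 8 for complex II, 8 for complex III, 12 for complex IV and 17 for complex V. Of 116 nuclear genes with these prefixes, 14 were left out for "-ps" in the name and 13 for a low count. Ndufb1-ps, which has a protein-coding transcript in the annotation and held 25759 counts, was among those left out by name.

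RNA was measured by sequencing of poly(A) libraries. The CD4+ and CD8+ T cells had been sorted out of spleens of C57BL/6 mice at 12 weeks of age. The cells had been activated for 2 days in culture with antibodies to CD3 and CD28. The study asked what Pou2af1, a coactivator of the octamer-binding POU factors, does in these cells. There were 4 libraries in each of 6 groups. The wild-type groups, labelled Pou2af1+/+, carried fl/fl alleles of Pou2af1 without the CD4.Cre transgene (CD4.Cre-). The heterozygote groups carried CD4.Cre+ with fl/+ alleles, and the knockout groups CD4.Cre+ with fl/fl alleles. The Cre transgene was thus present in heterozygote and knockout groups and absent from wild-type groups. The Cd4 promoter drives this Cre in developing T cells, so both lineages were exposed to it and other cells of the spleen were not its target. The labels do not say whether libraries came from separate animals, so p-values measure the spread between these libraries, part of which may be technical.

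In oxidative phosphorylation, complexes I and II pass electrons from NADH and succinate to ubiquinone, complex III passes them on to cytochrome c, and complex IV passes them to oxygen. Complexes I, III and IV pump protons as they do so, and complex V, the ATP synthase, makes ATP from the returning protons. Complexes I, III, IV and V are built from subunits of both genomes and complex II from nuclear genes alone. T cells that leave rest after receptor stimulation build mitochondria while they also raise glycolysis, and the respiratory chain is needed for their proliferation.

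Of the 13 mitochondrially encoded genes, 7 were measurable and 6 were at or near a count of 0, and the latter cannot be read as low expression. mt-Co2, mt-Co3 and mt-Nd4l had 0 counts in 24 libraries, mt-Atp6 and mt-Atp8 had 1 count each, and mt-Nd3 had 132. The table holds multimapping reads on a summary line of their own and assigns them to no gene. The annotated transcripts of other genes were therefore searched for every run of 50 bases of each mitochondrial gene. For mt-Co2, 100% of such runs also occurred in another annotated gene, and the values were 99.9% for mt-Co3, 99.5% for mt-Atp6, 98.8% for mt-Nd4l and 98.0% for mt-Nd3. The closest copies of these 5 genes, Gm28661, Gm28437, Gm10925, Gm10222 and Gm28438, are all annotated on chromosome 1. They are nuclear copies of mitochondrial DNA. The first 60 bases of the 3 longest of these genes are shown because nearly all of their sequence occurs elsewhere too, and these bases are identical in the mitochondrial gene and in its copy on chromosome 1 (mouse GRCm38, 5′ to 3′, + strand of the mitochondrial genome).
mt-Co2: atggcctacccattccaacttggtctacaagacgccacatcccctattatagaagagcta
mt-Co3: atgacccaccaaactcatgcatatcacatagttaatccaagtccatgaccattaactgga
mt-Atp6: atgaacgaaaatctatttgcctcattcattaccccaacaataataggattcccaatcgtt

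The longest run shared with the copy spanned 681 of 684 bases of mt-Co2, 783 of 784 bases of mt-Co3 and 678 of 681 bases of mt-Atp6. Gm28661, the copy of mt-Co2, held 2093 counts in all, between 39 and 178 per library, and Gm28437 held 117. mt-Atp8 shared none of its runs with an annotated transcript and still had 1 count. Copies outside annotated genes were not searched. Among the 7 measurable genes the shared part was 62.2% for mt-Nd4, 51.1% for mt-Co1, 8.19% for mt-Nd2 and 7.61% for mt-Nd5. It was 0 for mt-Nd1, mt-Cytb and mt-Nd6. Levels of mt-Nd4 and mt-Co1 may therefore be understated against those of the other genes.

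**Figure D1:**
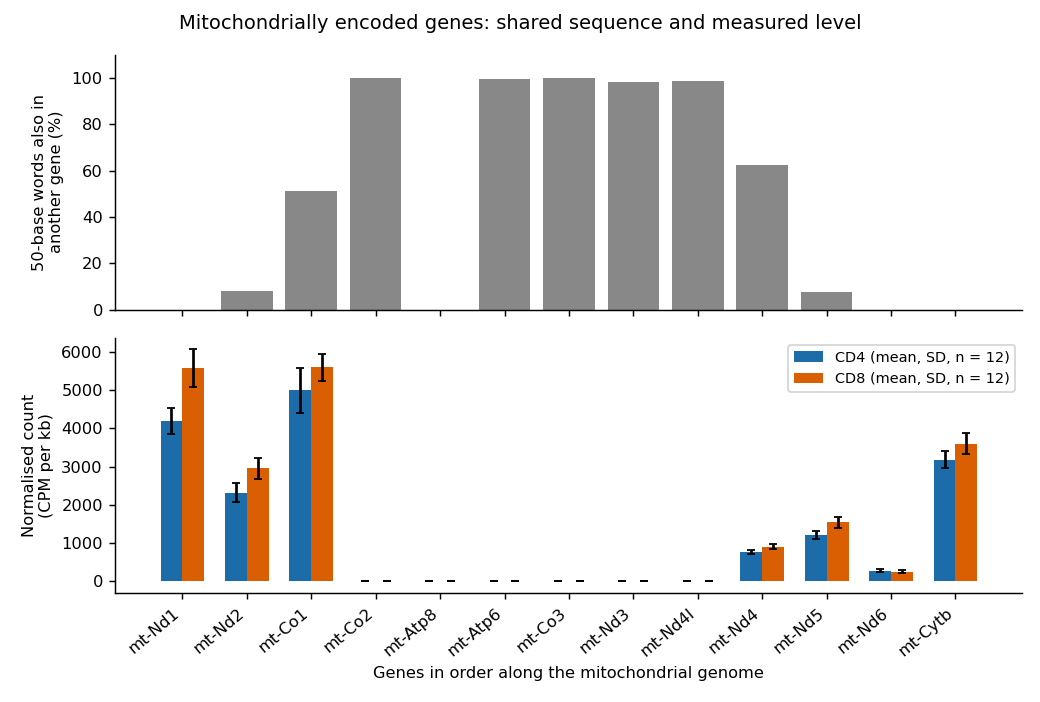
Upper bars give the percentage of 50-base runs of each mitochondrially encoded protein gene that also occur in another annotated gene, and lower bars its normalised count per kilobase in CD4 and CD8 libraries (mean and SD, 12 libraries each). The 5 genes at 98.0% or more, and mt-Atp8, have no visible bar below, while mt-Nd1, mt-Co1 and mt-Cytb stand highest.

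Levels between genes are compared as CPM per kilobase, that is counts scaled to a common library size (CPM), divided by the exonic length of the gene. The measurable mitochondrially encoded genes other than mt-Nd6 stood above every nuclear gene on this scale in CD4 libraries. In CD4 libraries mt-Co1, the catalytic subunit of complex IV, averaged 4993 CPM per kilobase, mt-Nd1 of complex I 4195 and mt-Cytb of complex III 3182. mt-Nd2 averaged 2319, mt-Nd5 1210.3, mt-Nd4 766 and mt-Nd6 275 CPM per kilobase. mt-Nd6 was the lowest of the measurable genes and the only one encoded on the other strand of the mitochondrial genome (chrM:13552-14070, - strand). No source used here states whether the counting used strand, so reads from mt-Nd6 and from antisense RNA over it cannot be told apart. With the count of the whole gene divided by its unshared length only, mt-Co1 would stand at 10217 CPM per kilobase in CD4 libraries and mt-Nd4 at 2027. Reads over the unshared bases were not counted apart, so these values are a rescaling and not a measured level.

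Among nuclear genes in CD4 libraries, the highest level per length was that of the ATP synthase alpha subunit, Atp5a1, at 280.3 CPM per kilobase. The lowest of complex V was Atp5g2 at 1.501, one of the c-ring genes. In complex I, levels ran from 79.7 CPM per kilobase for Ndufb6, an accessory subunit of the membrane arm, down to 0.858 for the assembly factor Ndufaf3. Complex II ran from 97.9 for the membrane anchor Sdhd to 1.86 for the assembly factor Sdhaf3. Complex III ran from 116 for the Rieske iron-sulfur protein Uqcrfs1 to 28.2 for Uqcr11. Complex IV ran from 136 for Cox4i1 to 12.1 for Cox7c. Genes of the same enzyme thus differed widely in level per length, where length counts every annotated exon.

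The forms of subunits known from other tissues were near absent. The count over 24 libraries was 4 for Cox4i2, the form of lung, 54 for Cox6a2, 100 for Cox7a1 and 0 for Cox8b, which are forms of heart and skeletal muscle. It was 124 for Cox6b2, a form of testis, and 9 for Ndufa4l2, a form induced by low oxygen. Their counterparts Cox4i1, Cox6a1, Cox7a2, Cox8a, Cox6b1 and Ndufa4 averaged between 66.1 (Ndufa4) and 136 (Cox4i1) CPM per kilobase in CD4 libraries. Of the 3 genes for the c subunit of ATP synthase, which encode the same mature protein, Atp5g3 averaged 95.5 CPM per kilobase in CD4 libraries, Atp5g1 1.70 and Atp5g2 1.501. Of their 50-base runs, 0% of Atp5g3, 11.1% of Atp5g1 and 36.7% of Atp5g2 also occur in other genes, so the levels of the latter pair may be understated.

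The libraries held 11.9 to 21.8 megacounts of gene counts each. Pou2af1, the targeted gene, averaged 38.4 CPM in CD4 wild type, 20.2 in CD4 heterozygote and 2.20 in CD4 knockout, and 27.7, 15.5 and 1.71 in the same order in CD8, which fits the labels. Summed markers of the CD4 lineage (Cd4, Zbtb7b, Cd40lg) ran from 655 to 787 CPM in CD4 libraries and from 4.77 to 18.2 in CD8 libraries. Those of the CD8 lineage (Cd8a, Cd8b1, Runx3, Crtam) ran from 73.7 to 111 and from 1250.3 to 1451. Markers of NK cells, macrophages and dendritic cells, neutrophils, red cells and platelets summed to at most 3.94 CPM in any library.

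More of these genes were called between the cell types than in the other comparisons. In the fit of all 24 libraries, with the 3 genotypes averaged, 71 of 96 tested genes were higher in CD8 than in CD4 libraries and 1 was lower, at an adjusted p under 0.05. All 89 nuclear genes and the 7 measurable mitochondrial genes passed the filter on low counts and were tested. Of all 13288 genes tested, 27% were called higher in CD8 and 27.6% lower, 54.6% in all. With library number as a block within genotype, which pairs the cell types, 72 were higher and 4 lower. The median log2 change of the 96 genes was 0.21, where 1 would mean a 2-fold difference, against -0.003 for all genes, and 87 of 96 lay above 0 against 49.6% of all genes. Most changes were small: they ran from -0.21 for Ndufaf5 to 0.66 for Ndufaf3. In bulk RNA, fewer cells of a kind and less RNA per cell cannot be told apart.

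The same difference showed in the summed shares. The 13 mitochondrial genes together took 1.95% to 2.40% of gene counts in CD4 libraries and 2.28% to 2.73% in CD8 libraries. By group the mean was 2.13% ± 0.0648 in CD4 wild type, 2.05% ± 0.0802 in CD4 heterozygote and 2.17% ± 0.157 in CD4 knockout (SD, n = 4 each). The CD8 means were 2.50% ± 0.0936, 2.51% ± 0.195 and 2.57% ± 0.145. The ranges overlapped: CD4 knockout library 4 reached 2.40%, above CD8 heterozygote library 3 at 2.28% and CD8 knockout library 4 at 2.38%. The 89 nuclear genes took 0.742% to 0.849% in CD4 and 0.821% to 1.04% in CD8 libraries, with CD8 knockout library 2 lowest and CD8 heterozygote library 4 highest among the latter. The mitochondrial sum was 2.35 to 3.24 times the nuclear sum over the 24 libraries. As 6 of the 13 mitochondrial genes were at or near a count of 0, their sum rests on the other 7. Multimapping reads are in neither sum, so the mitochondrial shares and this ratio may be understated.

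**Figure D2:**
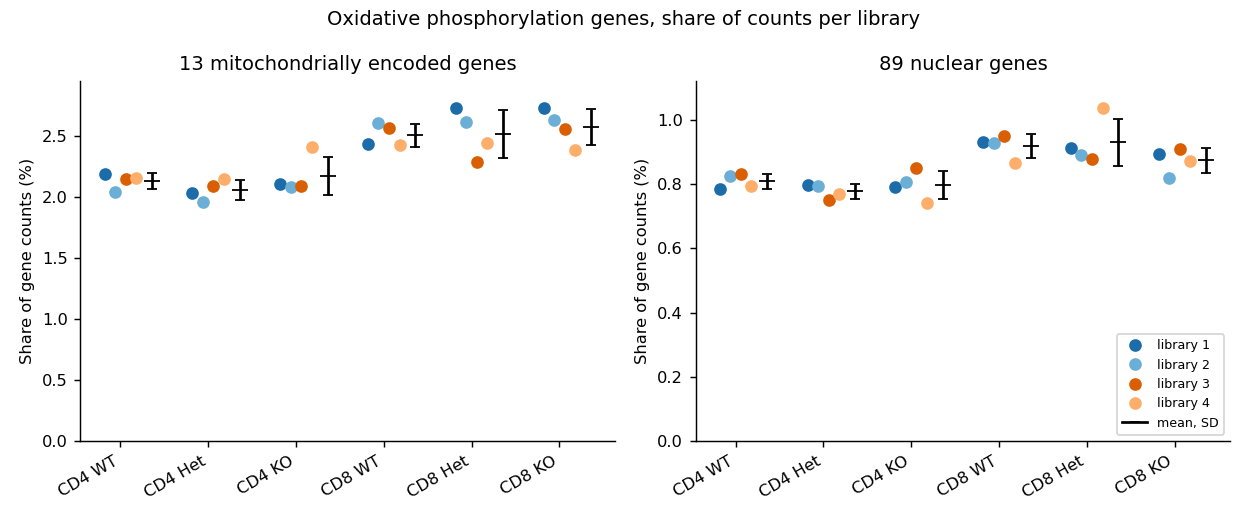
Points give, for each library, the share of all gene counts taken by the 13 mitochondrially encoded genes (left) and the 89 nuclear genes (right), coloured by library number, with the group mean and SD (4 libraries). CD8 groups average 2.50% to 2.57% on the left and CD4 groups 2.05% to 2.17%.

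In complex II, all 4 subunits rose in CD8 and none of the 4 assembly factors was called. Sdhb, the iron-sulfur subunit of succinate dehydrogenase (chr4:140961203-140979193, GRCm38), had the lowest p of the 96 tested genes. Its lowest, median and highest values were 92.1, 108 and 116 CPM in the 12 CD4 libraries and 122, 145 and 169 CPM in the 12 CD8 libraries. Every CD8 library lay above every CD4 library. The log2 change was 0.43 (SE 0.04, adjusted p 1.80e-08). The other subunits rose by less: Sdhd by 0.31, the flavoprotein Sdha by 0.22 and the anchor Sdhc by 0.17. The assembly factors Sdhaf1 to Sdhaf4 had log2 changes between -0.14 and 0.03.

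In complex I, 6 of 7 core subunits, which carry the redox centres, rose in CD8, with 20 of 29 accessory subunits and 6 of 8 assembly factors. Ndufv2, a core iron-sulfur subunit, ran from 85.6 to 98.3 CPM in CD4 libraries (median 91.6) and from 103 to 116 in CD8 libraries (median 107). The groups did not overlap, and the log2 change was 0.22 (SE 0.03, adjusted p 6.13e-07). Ndufs1, the largest core subunit, rose by 0.35 and Ndufs8 by 0.26. Ndufs3 was the core subunit that did not pass, at -0.05 (adjusted p 0.27).

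Ndufb9, an accessory subunit of the membrane arm on chromosome 15, ran from 19.4 to 22.3 CPM in CD4 libraries (median 20.6) and from 24.3 to 28.8 in CD8 libraries (median 25.9). It too separated the cell types without overlap, with a log2 change of 0.33 (SE 0.04, adjusted p 1.97e-07). The accessory subunits with the largest changes were Ndufb10 at 0.44, Ndufb3 at 0.40 and Ndufb7 at 0.40. At the other end stood Ndufab1, the mitochondrial acyl carrier protein, at -0.13 (adjusted p 0.10, and 0.0209 with the replicate block) and Ndufs4 at -0.02 (adjusted p 0.72).

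The assembly factors of complex I spread widest. Ndufaf4 ran from 51.5 to 65.9 CPM in CD4 libraries (median 61.0) and from 59.5 to 113 in CD8 libraries (median 86.0). The CD8 values were higher but overlapped those of CD4 at CD8 knockout library 2 and were spread over a wider range. Its log2 change was 0.51 (SE 0.08, adjusted p 1.77e-05). Ndufaf3 rose by 0.66 (SE 0.17), from a median of 1.48 CPM to 2.36, so at a level where single counts matter more. Ndufaf5, an arginine hydroxylase that acts on a core subunit, was the only gene called lower in the fit of all 24 libraries without the block. With the block Ndufab1 (adjusted p 0.0209), Cox7a2l (0.00425) and mt-Nd6 (0.0231) were called lower too. Some fits that left out a library also called Cox7a2l, Ndufab1 or mt-Nd6 lower. With the libraries numbered 3 and 4 alone, Cox7a2l and Ndufs3 were called lower and Ndufaf5 was not. Ndufaf5 ran from 14.9 to 21.5 CPM in CD4 libraries (median 18.8) and from 14.4 to 20.2 in CD8 libraries (median 15.5). The ranges overlapped widely, and the log2 change was -0.21 (SE 0.07, adjusted p 0.0115).

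In complex III, 6 of 8 genes rose. Uqcr11 rose most, by 0.40, followed by the hinge protein Uqcrh at 0.30 and Uqcrb at 0.26. The core proteins Uqcrc1 and Uqcrc2 rose by 0.23 and 0.14 and the Rieske protein Uqcrfs1 by 0.20. Uqcrq at 0.14 passed only with the replicate block (adjusted p 0.0448), and Uqcr10 at 0.11 did not pass.

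In complex IV, 9 of 12 genes rose. Cox6b1, which sits at the face of the enzyme towards cytochrome c, ran from 75.2 to 95.001 CPM in CD4 libraries (median 85.4) and from 94.98 to 120 in CD8 libraries (median 107). The ranges touched, and the log2 change was 0.32 (SE 0.04, adjusted p 1.21e-06). Ndufa4, now counted with complex IV, rose by 0.48, and Cox5b and Cox5a by 0.33 and 0.31 without overlap between the cell types. Cox7a2l, counted here with complex IV, went the other way at -0.17, with an adjusted p of 0.0522 without and 0.00425 with the replicate block. Its homologue Cox7a2 stood at 0.05 (adjusted p 0.40).

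In complex V, 14 of 17 genes rose. Atp5h, the stalk subunit d, ran from 59.7 to 73.4 CPM in CD4 libraries (median 65.1) and from 71.4 to 79.9 in CD8 libraries (median 77.3). The upper end of CD4 overlapped the lower end of CD8, and the log2 change was 0.23 (SE 0.03, adjusted p 1.19e-06). Atp5k, the small subunit e, rose most, by 0.50. The catalytic subunits Atp5a1 and Atp5b rose by 0.14 and 0.11. Of the c-ring genes Atp5g3 rose by 0.38 and Atp5g2 by 0.32, and Atp5g1 stood at 0.13 (adjusted p 0.37).

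**Figure D3:**
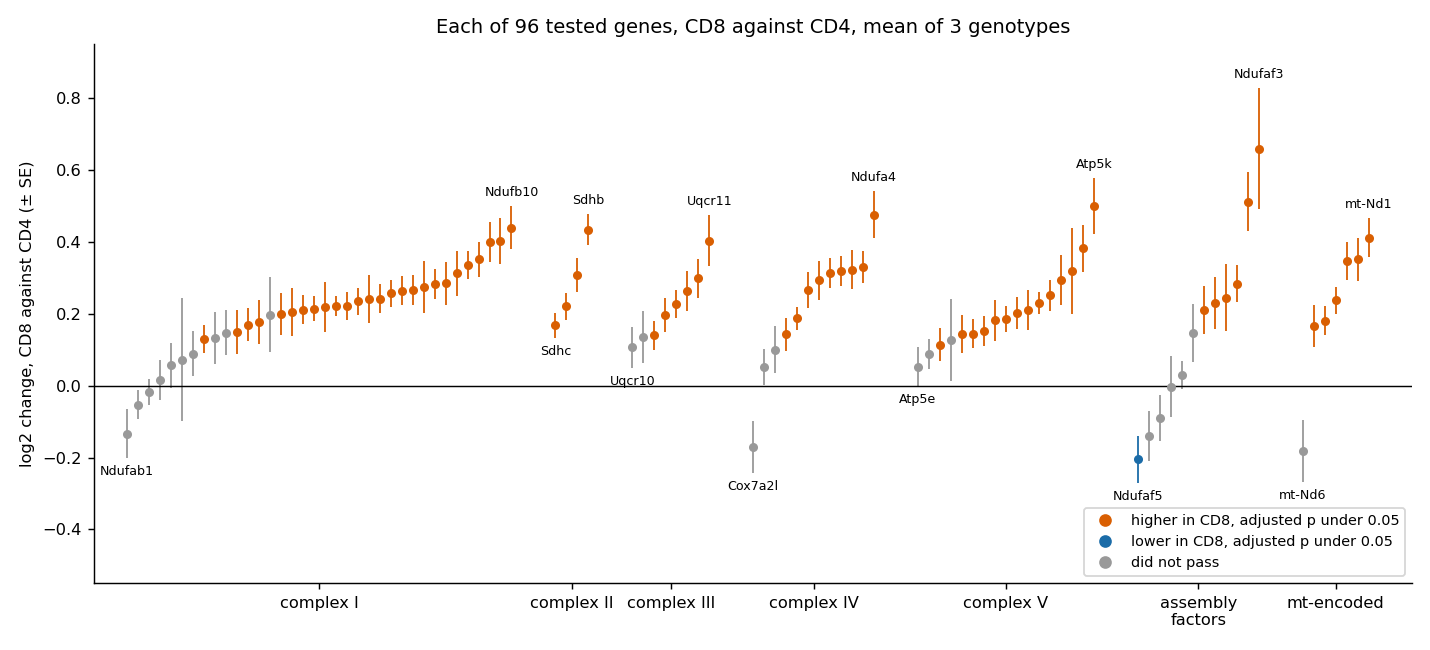
Each point is the log2 change of a tested gene, CD8 against CD4 with the 3 genotypes averaged, with its standard error, sorted within each complex, with the assembly factors of complexes I and II as a set of their own; colours mark the 71 genes called higher, the 1 called lower and those that did not pass. All 4 complex II subunits lie above 0, and mt-Nd6 stands apart from the other 6 mitochondrial genes.

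Of the mitochondrially encoded genes, 6 of 7 rose in CD8. mt-Nd1 ran from 3609.8 to 4602 CPM in CD4 libraries (median 4007) and from 4608 to 5974 in CD8 libraries (median 5387). It separated the cell types, if by a narrow margin, with a log2 change of 0.41 (SE 0.05, adjusted p 1.29e-06). mt-Nd2 and mt-Nd5 rose by 0.35 each, mt-Nd4 by 0.24, mt-Cytb by 0.18 and mt-Co1 by 0.16. mt-Nd6 lay on the other side of 0. It ran from 113 to 182 CPM in CD4 libraries (median 139) and from 88.98 to 159.9 in CD8 libraries (median 123), with a log2 change of -0.18 (adjusted p 0.0822 without and 0.0231 with the replicate block).

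Without overlap between 12 CD4 and 12 CD8 libraries, 9 nuclear genes (Cox5a, Cox5b, Ndufa10, Ndufa9, Ndufb5, Ndufb7, Ndufb9, Ndufv2, Sdhb) and mt-Nd1 were higher in CD8, and none was lower. Of all genes tested, 4.64% were higher without overlap and 5.4% lower. The call of 53 of the 72 genes held in each of 31 alternatives. In these alternatives Ndufaf5 kept its direction and lost its call in 1, with the libraries numbered 3 and 4 alone.

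In wild-type libraries alone, 41 of 96 genes were higher in CD8, 37 nuclear and 4 mitochondrial, and none was lower, beside 14.7% of all genes higher and 16.6% lower (31.2% in all). With the replicate block 45 were higher, and Cox7a2l and Ndufab1 were lower (adjusted p 0.0470 and 0.02498). The 6 genes of lowest p were Sdhb (0.47), Ndufb9 (0.37), Cox5a (0.37), Ndufs1 (0.40), Ndufaf4 (0.66) and Cox5b (0.33). Sdhb stood at 107, 105.2, 112 and 106 CPM in CD4 wild-type libraries 1 to 4 and at 143, 159, 154 and 139 in CD8. Each CD8 value exceeded each CD4 value. The count fell to 11 with the libraries numbered 3 and 4 alone and to 23 without a filter on low counts. Of the 41 genes, 6 were called in each of 31 alternatives: Cox5a, Ndufaf4, Ndufb9, Ndufs1, Sdhb and mt-Nd1.

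Markers of B cells moved with this comparison. The 6 summed markers ran from 134 to 201 CPM in CD4 libraries and from 355 to 425 in CD8 libraries. Most of it was Ighm, at 154 CPM in CD4 wild type and 382 in CD8 wild type. Cd79b stood at 0.483 and 4.52 CPM in the same groups, and 1 of the 6 genes averaged under 1 CPM. The summed T cell markers also differed, with 1638 to 1971 CPM in CD4 and 2141 to 2462 in CD8 libraries. The part of these in the result was not tested.

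Promoter windows were looked at because many of the nuclear genes moved together. RefSeq (GRCm38.p6) windows from 250 bases before to 50 bases after a start were found for 76 of the 89 nuclear genes. The NRF1 motif, a palindrome, occurred in 7 of 76 (9.21%), against 1.07% of 27025 genes. The ETS motif CCGGAAG, bound by GABPA among others, occurred in 28.9% against 9.93%, and the YY1 motif in 7.89% against 0.995%. Searches covered both strands. For GGGCGG the shares were 48.7% and 38.2% and for CCAAT 42.1% and 41.1%. The octamer ATGCAAAT, the site of the factors that Pou2af1 assists, was in 1 of 76 windows (1.32%) and in 1.97% of all genes. Between the 54 genes higher in CD8 with a window and the 22 others, the shares were 29.6% and 27.3% for ETS, 11.1% and 4.55% for NRF1, 9.26% and 4.55% for YY1, 44.4% and 59.1% for GGGCGG and 42.6% and 40.9% for CCAAT. The octamer match was in 1 of the 22. For NRF1 and YY1 these rest on 6 genes against 1 and on 5 against 1. The NRF1 match among the 22 others was in Ndufaf5, which was called lower in CD8 at -0.21. A match describes letters only. The 170 bases before the start are printed for 4 genes that rose in CD8, with the motif in capitals: Cox6b1 as the complex IV gene of lowest p (ETS), Atp5k and Ndufaf4 as genes with the largest changes (NRF1), and Cox6a1 for both motifs. They lie at chr7:30626115-30626284 (-), chr5:108434400-108434569 (-), chr4:24897913-24898082 (+) and chr5:115348959-115349128 (-) in this order. Atp5k also has an ETS match at base 13 after the start, past the bases printed.
Cox6b1: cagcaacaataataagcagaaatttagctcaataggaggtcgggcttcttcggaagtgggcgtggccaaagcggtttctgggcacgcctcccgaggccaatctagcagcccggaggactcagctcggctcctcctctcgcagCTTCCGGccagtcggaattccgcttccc
Atp5k: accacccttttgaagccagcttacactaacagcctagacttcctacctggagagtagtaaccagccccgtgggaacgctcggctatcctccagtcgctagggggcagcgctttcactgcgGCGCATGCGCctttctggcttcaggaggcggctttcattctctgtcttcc
Ndufaf4: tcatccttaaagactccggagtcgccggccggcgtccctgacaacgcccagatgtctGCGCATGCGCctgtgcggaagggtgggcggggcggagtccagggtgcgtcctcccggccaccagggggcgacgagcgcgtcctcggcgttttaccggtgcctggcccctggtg
Cox6a1: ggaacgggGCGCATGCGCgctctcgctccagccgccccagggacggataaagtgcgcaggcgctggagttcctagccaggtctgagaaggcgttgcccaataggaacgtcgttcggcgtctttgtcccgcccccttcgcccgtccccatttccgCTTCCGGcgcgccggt

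Other mitochondrial genes were read from lists beside the prefixes, for CD8 against CD4 with genotypes averaged, where 27% of all genes were higher and 27.6% lower. Of 19 genes of pyruvate entry and the TCA cycle, 11 rose (57.9%) and 4 fell (21.1%). Idh3a at 0.44, Ogdh at 0.26 and Idh3b at 0.25 were among the former, and the latter were the pyruvate carrier gene Mpc1 at -0.70, Idh2 at -0.41, Pdha1 at -0.15 and Dlat at -0.14. Of 9 electron carriers and exchangers, 5 rose (55.6%) and none fell, among them the ADP/ATP carriers Slc25a4 at 0.28 and Slc25a5 at 0.21. Of 77 genes of the mitochondrial ribosome, 38 rose (49.4%) and 5 fell (6.49%). The remaining lists lay nearer to the share over all genes or below it. Of 33 assembly factors with other names, 11 rose (33.3%) and 5 fell (15.2%): Lyrm7, a complex III factor, at 0.76 and Lrpprc, which stabilises mitochondrial mRNA, at 0.34 rose, and the complex IV factors Cox14, Sco1, Cox17, Cox11 and Cox18 stood at -0.48, -0.46, -0.44, -0.27 and -0.20. Of 12 tested genes of mitochondrial DNA copying and transcription, 3 rose and 3 fell (25% each), among them Ssbp1 at 0.26 and the polymerase Polg at -0.47. Of 9 tested regulators, the coactivator Ppargc1b rose by 0.51, and Gabpb1 and Myc fell by 0.40 and 0.31. Nrf1 at 0.13 did not pass (adjusted p 0.0668). The genes that fell were named after their values were seen.

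No oxidative phosphorylation gene was called between genotypes, in either cell type. In CD4 cells, 0 of 96 genes passed in edgeR's test for knockout against wild type, where 0.0708% of all 12719 genes tested did (0.0472% higher, 0.0236% lower). None of the 96 had an unadjusted p under 0.05, and DESeq2 called 0. The median log2 change was -0.01 over the 96 genes and -0.006 over all genes, with a median standard error of 0.09. The 3 genes of lowest p were Ndufs8 at -0.12, mt-Cytb at 0.10 and Ndufaf7 at -0.15 (adjusted p of 1.00 each after rounding). Ndufs8, a core iron-sulfur subunit of complex I, stood at 62.9, 65.7, 59.9 and 58.9 CPM in CD4 wild type and at 59.5, 58.4, 56.8 and 53.6 in CD4 knockout. The groups overlapped by a small margin.

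For CD4 heterozygote against wild type, 0 of 96 genes passed, beside 0.0865% of all genes (0.055% higher, 0.0314% lower), with 6 at an unadjusted p under 0.05 and 0 in DESeq2. The 89 nuclear genes had a median log2 change of -0.07, against -0.02 over all genes, and 17 lay above 0. All 29 accessory subunits of complex I lay below 0. In the genotype comparisons, counts at an unadjusted p under 0.05 and counts above 0 are given without the share over all genes. They, and medians with no value over all genes beside them, are thus not read as a trait of these genes. The lowest p belonged to Ndufc2, an accessory subunit, at -0.24 (SE 0.09, adjusted p 0.47). It stood at 44.9, 43.7, 53.4 and 42.2 CPM in wild type and at 39.6, 41.3, 37.3 and 38.0 in heterozygote libraries. Every heterozygote value was below every wild-type value, if by little, but Ndufc2 was named for its low p in these same values. Next were Ndufaf1 at -0.23 and Ndufa3 at -0.30. With the libraries numbered 3 and 4 alone, Ndufv3 was called lower, at -0.65 (adjusted p 0.0207).

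For CD4 knockout against heterozygote, 0 of 96 genes passed, beside 0.0157% of all genes (0.00786% in each direction), with 8 at an unadjusted p under 0.05 and 0 in DESeq2. Both comparisons above share libraries with this one. The genes of lowest p were mt-Cytb at 0.17, Ndufc2 at 0.24 and Ndufa3 at 0.33 (adjusted p of 1.00 each after rounding). The nuclear genes had a median of 0.05, with 67 of 89 above 0, and the 7 mitochondrial genes a median of 0.11, with 6 above 0.

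In CD8 cells, 0 of 96 genes passed for knockout against wild type, beside 0.0634% of all 12612 genes tested (0.0317% in each direction), with 1 at an unadjusted p under 0.05 and 0 in DESeq2. Of the 89 nuclear genes, 16 lay above 0, with a median of -0.06 against 0.003 over all genes. Of the 7 mitochondrial genes, 6 lay above 0, with a median of 0.05. The lowest p was that of Ndufb2, an accessory subunit of the membrane arm of complex I, at -0.30 (SE 0.12, adjusted p 0.99). It stood at 17.4, 15.9, 17.7 and 14.3 CPM in wild type and at 13.4, 10.2, 14.9 and 14.6 in knockout libraries. The ranges overlapped, and knockout library 2 lay lowest. Ndufb8 stood at -0.15 and Atp5e at -0.17.

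For CD8 heterozygote against wild type, 0 of 96 genes passed, beside 0.0634% of all genes, with 1 at an unadjusted p under 0.05 and 0 in DESeq2. That gene was mt-Nd6 at -0.34 (SE 0.14, adjusted p of 1.00 after rounding), with 124, 133, 158 and 159.9 CPM in wild type and 115, 114, 122 and 104 in heterozygote libraries. No heterozygote library reached the lowest wild-type value, but mt-Nd6 was named for its low p in these same values. Ndufb7 and Uqcrh followed at 0.13 each. The nuclear median was 0.01, with 54 of 89 above 0.

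For CD8 knockout against heterozygote, which shares libraries with both, 0 of 96 genes passed, beside 0.0159% of all genes (0.00793% in each direction), with 3 at an unadjusted p under 0.05 and 0 in DESeq2. These 3 were Ndufb8 at -0.21, Uqcrh at -0.22 and Uqcr11 at -0.29 (adjusted p 0.66, 0.66 and 0.70). The nuclear median was -0.08, with 14 of 89 above 0, and the mitochondrial median 0.07. In the CD8 comparisons with knockout the 2 genomes thus had medians of opposite sign, in both cases without a gene that passed.

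**Figure D4:**
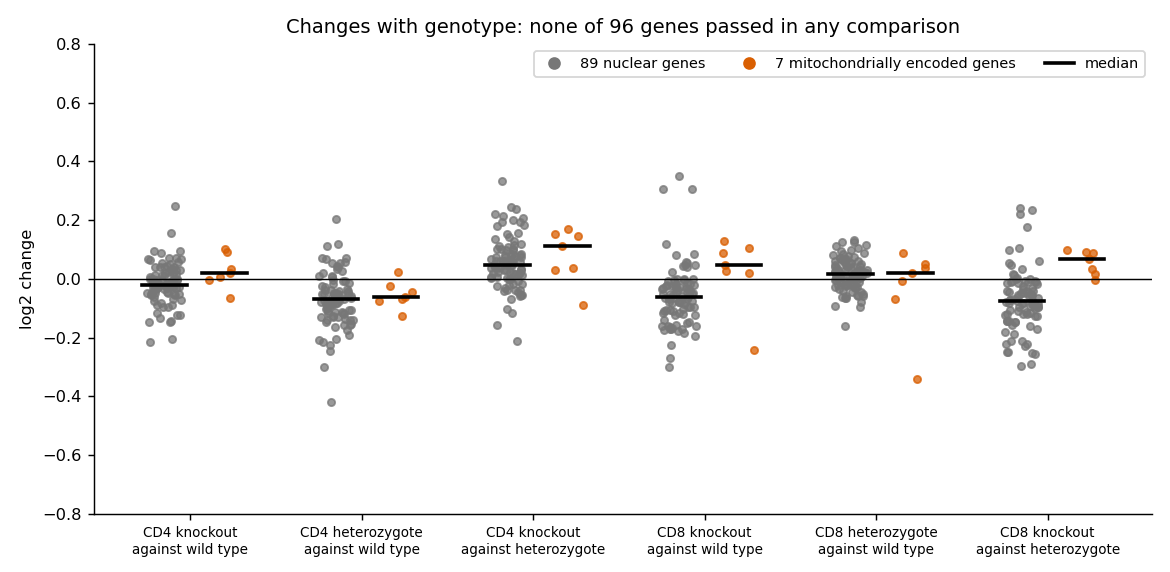
Points are the log2 changes of 89 nuclear (grey) and 7 mitochondrial (orange) genes in the 6 genotype comparisons, with the median of each as a bar. None passed at an adjusted p under 0.05, and the nuclear medians lie between -0.08 and 0.05.

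The genotype effect was also compared between cell types. For the change from wild type to knockout in CD8 minus that in CD4, 0 of 96 genes passed, beside 0.00753% of 13288 genes, with 1 at an unadjusted p under 0.05 and 0 in DESeq2. The lowest p values were those of Sdhaf4 at -0.53, Ndufb2 at -0.36 and Ndufc1 at -0.28. For the change from wild type to heterozygote, 0 passed, beside 0.00753% of genes, with 5 at an unadjusted p under 0.05 and 0 in DESeq2. Uqcrh at 0.33, Cox7b at 0.31 and Ndufb7 at 0.32 led. In the 6 lists of other mitochondrial genes, 0 genes were called in any of these 8 comparisons in edgeR.

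More of these genes, as of all genes, were called by library number than by genotype. Libraries numbered 3 and 4 were set against those numbered 1 and 2 with group in the model, a split that was known from earlier results of these data. What the numbers mark is not given in the labels. In CD4 cells, 4 of 96 genes were higher and 15 lower in libraries 3 and 4, beside 17.9% of all genes higher and 16.9% lower (34.8% in all). In CD8 cells, 2 were higher and 6 lower, beside 8.98% higher and 8.86% lower (17.8% in all). In both cell types the share called among the 96 genes was thus below that over all genes. Without overlap between the numbers, Ndufv3 and mt-Co1 were higher and Atp5b, Cox4i1, Ndufaf7 and Ndufb6 lower in CD4 libraries 3 and 4, beside 8.43% and 6.04% of all genes. In CD8, Ndufv3 was higher and Ndufab1 and mt-Nd2 lower without overlap, beside 5.29% and 3.95%. By sex-linked transcripts, 3 of 6 libraries numbered 1 and 2 and 1 of 6 numbered 3 and 4 were female in each cell type, and the part of sex in these changes was not tested. Multimapping reads made up 17.97% to 18.4% of entries in CD4 libraries 1 and 2 and 17.7% to 18.01% in CD4 libraries 3 and 4, and their part was not tested either.

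Ndufv3, an accessory subunit at the NADH-binding end of complex I (chr17:31520115-31531331), varied most within groups of the 96 genes, with a pooled SD of 0.46 (log2) against a median of 0.14. In CD4 wild type it stood at 41.5 and 41.6 CPM in libraries 1 and 2 and at 96.9 and 90.2 in libraries 3 and 4. In CD4 heterozygote the values were 41.9, 43.3, 58.2 and 60.6, and in CD4 knockout 39.0, 39.1, 82.8 and 73.5. Libraries 1 and 2 were alike in every CD4 group, and libraries 3 and 4 were higher, least so in heterozygotes. In CD8 the values were 53.1, 49.9, 58.7 and 88.7 in wild type, 49.8, 48.2, 85.0 and 63.8 in heterozygote and 52.8, 46.7, 65.0 and 78.6 in knockout. The numbers did not overlap in either cell type. The log2 change was 0.88 in CD4 (SE 0.09, adjusted p 4.00e-05) and 0.54 in CD8 (SE 0.10, adjusted p 0.00495). Its rise held in each of 16 alternatives in both cell types.

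The mitochondrial genes did not move together. mt-Co1 rose in CD4 libraries 3 and 4 by 0.30 (SE 0.04, adjusted p 0.000244), from 6564 to 7127 CPM in the 6 libraries numbered 1 and 2 to 7703 to 9257 in the others. mt-Nd6 rose by 0.28 there, while mt-Nd1 and mt-Nd2 fell by 0.16 and 0.19. In CD8 cells, 4 mitochondrial genes of complex I fell: mt-Nd2 by 0.23, mt-Nd5 by 0.22, mt-Nd1 by 0.21 and mt-Nd4 by 0.15. mt-Nd2 stood at 2988 to 3550.1 CPM in CD8 libraries 1 and 2 and at 2734 to 2969 in libraries 3 and 4, without overlap. mt-Nd6 at 0.27 did not pass in CD8 (adjusted p 0.0517). mt-Co1 differed between the cell types by -0.21 in this change (adjusted p 0.0540), which passed in 8 of 28 alternatives, DESeq2 among them. The call of mt-Nd4 was lost in 8 of 16 alternatives.

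Among nuclear genes in CD4 libraries 3 and 4, the complex III subunit Uqcrq fell by 0.34, Ndufab1 by 0.31, Ndufb7 by 0.21, the ATP synthase beta subunit Atp5b by 0.17 and Cox4i1 by 0.11, and Ndufb10 rose by 0.21. Of the 19 CD4 calls, 6 held in each of 16 alternatives (Atp5b, Ndufab1, Ndufb7, Ndufv3, Uqcrq and mt-Co1), while those of Cox4i1 and Ndufb10 were lost in 4 each and that of mt-Nd6 in 1. Uqcrq stood at 59.3, 64.3, 50.3, 59.5, 56.8 and 60.1 CPM in the CD4 libraries numbered 1 and 2, in the order wild type, heterozygote, knockout. It stood at 48.7, 50.5, 47.2, 46.0, 43.3 and 41.8 in those numbered 3 and 4. The ranges overlapped at 1 value. In CD8 cells Cox7a2l fell by 0.32 and Ndufab1 by 0.18, and Ndufa9 rose by 0.14. The CD8 calls of Ndufab1 and Ndufa9 were lost in 12 and 10 of 16 alternatives, and that of Cox7a2l in 2.

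The change with library number differed between the cell types for 2 nuclear genes of complex V, beside 2.54% of all genes higher and 3.32% lower (5.86% in all). Atp5b differed by 0.26 (SE 0.07, adjusted p 0.0317). It stood at 1209 to 1274 CPM in CD4 libraries 1 and 2 and at 1038 to 1145 in 3 and 4, and at 1160 to 1288 and 1198 to 1523 in CD8. CD4 values were lower in libraries 3 and 4 without overlap, and CD8 values overlapped. CD8 heterozygote library 4, at 1523, lay far above the rest. Atp5g1 differed by 0.64 (SE 0.19, adjusted p 0.0447). The call of Atp5b was lost in 7 of 28 alternatives and that of Atp5g1 in 18.

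**Figure D5:**
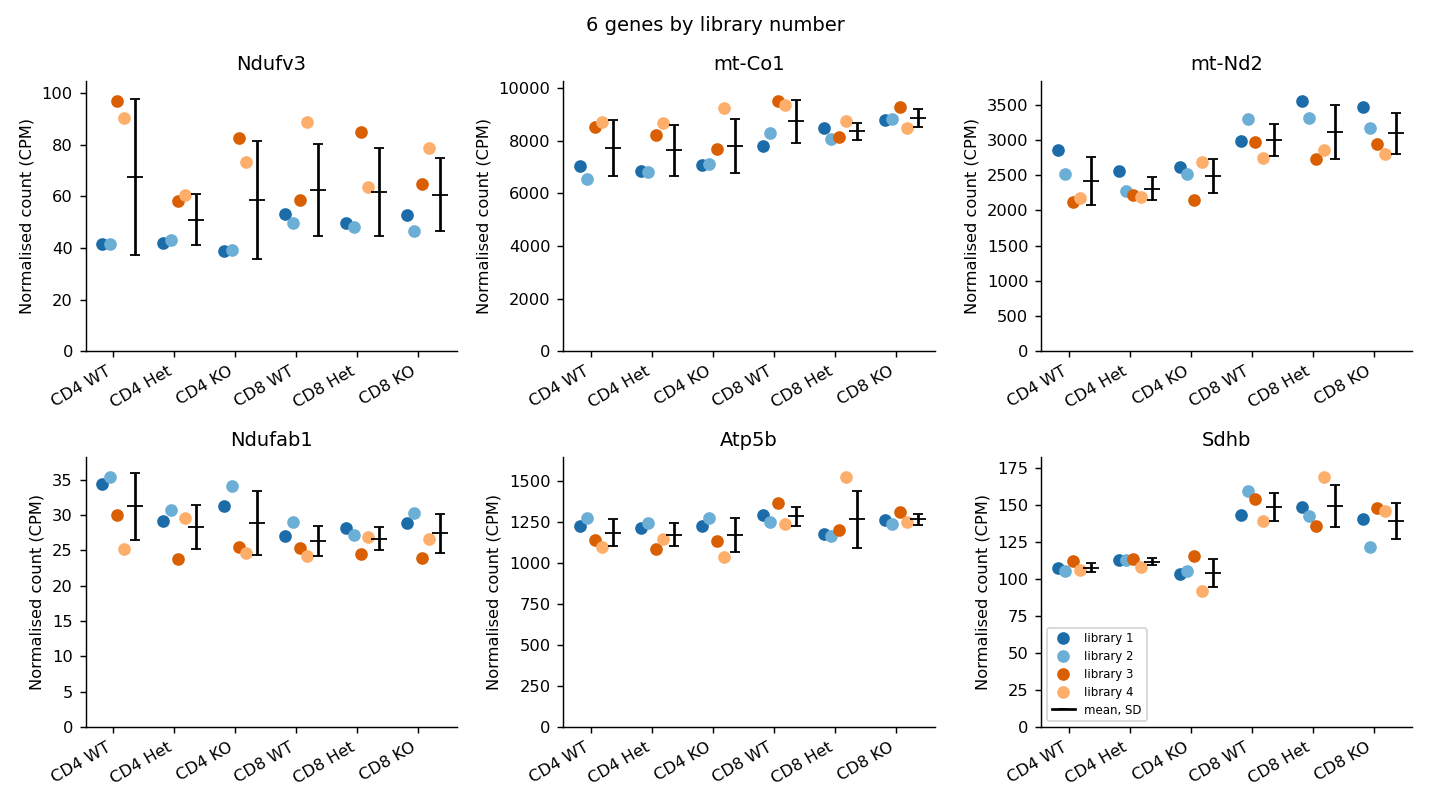
Points are normalised counts (CPM) of 6 genes in each library by group, coloured by library number, with the group mean and SD (4 libraries). For Ndufv3 the libraries numbered 3 and 4 lie above those numbered 1 and 2 in every group, while Sdhb separates CD8 from CD4 groups at every number.

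Across the 24 libraries, deviations from the group mean gave a median Pearson correlation of 0.29 over 3916 pairs of nuclear genes, 0.42 over 21 pairs of mitochondrial genes and -0.01 over 623 mixed pairs. The median was 0.22 for nuclear pairs within a complex and 0.32 for pairs across complexes. These are descriptions over libraries that share numbers, depth and scaling.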

How the data were processed

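The authors deposited raw gene counts for 24 libraries, which are whole numbers with no scaling. Per the submitters' processing notes, Trimmomatic 0.35, STAR 2.7.1a, DESeq2 1.26.0 and the build GRCm38 were used. No source used here gives the annotation release or the strand setting. Of 55401 gene identifiers, 54349 matched the reference annotation (GENCODE M21) by identifier and coordinates. Summary lines of the table (unmapped, multimapping, featureless and ambiguous reads) held 31.6% to 35.0% of entries and were left out. The deposited normalized table was not used.

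Counts were tested in R 4.3.3 with edgeR 4.0.16 (filterByExpr, TMM factors, quasi-likelihood F test, 2-sided). Benjamini-Hochberg adjustment ran over all genes tested, with 0.05 as the threshold. Genotypes were compared in the 12 libraries of a cell type, cell types and differences of effects in all 24. Each standard error was derived from the log2 change and its F statistic. CPM values are scaled by the TMM factors. Floors cover counting error only, as PCR copies of a molecule are counted again. A count of 3 corresponds to 0.138 to 0.251 CPM per library. The fit was tested on simulated counts, with the same spread for all genes. Of 100 genes changed 1.5-fold, 37 were recovered for CD4 knockout against wild type and 87 for CD8 against CD4. Of 100 changed 2-fold, 86 and 97 were recovered. Alternatives were DESeq2 1.42.0, RLE factors, no filter, mitochondrial genes left out of library sizes, the replicate block, other library subsets, a term for library numbers or sex, and leaving out each library.

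Same-numbered libraries deviated together in every pair within CD4 (correlation 0.132 to 0.580) and between the cell types of a genotype (0.147 to 0.451). The numbers were therefore taken to pair these. Differently numbered libraries had negative medians there (-0.390 to -0.159), but some correlated as highly. They reached 0.598 for CD4 wild type with CD4 knockout and 0.368 for CD4 with CD8 wild type. For CD4 with CD8 knockout they stayed lower, at most 0.313 against at least 0.354. These ranges alone cannot tell pairing by number from the library-number split. Calls made only with the replicate block rest on the pairing. Within CD8 the lowest correlation of same-numbered libraries was -0.226. The members, lists, library-number split and tests were chosen with earlier results of these data known. Named genes are the called members of a comparison if 12 or fewer, otherwise the 6 of lowest p in each direction. Where fewer than 3 were called, the 3 of lowest p are named. To these come the mitochondrial genes, alternative subunit forms, the highest and lowest gene per length in each complex, and up to 4 genes per other list. Further genes in the account of complexes and library numbers were named after their values were seen. Some single-gene values are not reported here.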

Additional observations from a re-analysis of the deposited data

Results flagged for a closer look

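In 258 groups of 4 libraries over 43 measures, 17 groups had 1 library far from the other 3 (by Dixon's gap over range), where chance alone flags about 1 in 20 groups. CD8 heterozygote library 4 was high in 4 genes: Atp5b at 1523 CPM (others 1160 to 1198), Ndufb8 at 77.3 (68.3 to 69.4), Ndufc1 at 35.3 (26.2 to 27.5) and Uqcr11 at 28.9 (25.4 to 25.7). CD8 heterozygote library 3 was low in Ndufb2 at 14.0 CPM (16.3 to 16.7). CD4 wild-type library 4 was low in Atp5h at 64.5 CPM (68.4 to 69.1), Cox7a2l at 81.6 (93.4 to 95.001) and Ndufb7 at 31.2 (34.8 to 35.2). CD4 heterozygote library 4 was low in Cox5b at 34.6 CPM (38.03 to 38.7) and Sdhb at 108 (112.7 to 113.4). CD8 knockout library 2 was low in Cox5b at 39.5 CPM (46.02 to 47.02), and CD8 wild-type library 3 was high in Ndufs1 at 211 (193 to 196). CD4 knockout library 3 was high in Cox7b at 131 CPM (104 to 106).

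Among mitochondrial genes, mt-Nd1 was high in CD4 heterozygote library 1 at 4372 CPM (3772 to 3830) and low in CD4 knockout library 3 at 3609.8 (4184 to 4226). mt-Cytb was low in CD8 knockout library 4 at 3882 CPM (4309 to 4389). The share of counts from mitochondrial protein genes was high in CD4 knockout library 4 at 2.40% (2.08% to 2.10%). The change from libraries 1 and 2 to 3 and 4 differed between CD8 and CD4 for Atp5b by 0.26 and for Atp5g1 by 0.64 on the log2 scale, by the interaction test in edgeR (adjusted p 0.0317 and 0.0447).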

How the results depend on the processing

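The genotype comparisons kept a count of 0 members in all alternatives but 1: with the libraries numbered 3 and 4 alone, 1 gene (Ndufv3) was called for CD4 heterozygote against wild type. With the replicate block the genotype counts stayed at 0, and CD8 against CD4 gave 76 genes over the mean of genotypes (72 higher, 4 lower) and 47 in wild type (45 higher, 2 lower), against 71 higher and 1 lower, and 41 higher and 0 lower, without it. The pairing thus left the totals within 1.5 times and moved the counts of lower genes by more. CD8 against CD4 in wild type gave 23 genes without a filter on low counts and 11 with the libraries numbered 3 and 4 alone. Leaving out each library in turn gave 69 to 74 genes for CD8 against CD4 over the mean of genotypes. For libraries 3 and 4 against 1 and 2, leaving out each library gave 10 to 21 genes in CD4, with 10 without CD4 knockout replicate 2 and 11 without CD4 wild type replicate 4. It gave 4 to 8 genes in CD8, with 4 without CD8 knockout replicate 3 or 4 and 5 without CD8 heterozygote replicate 1 or 2. The difference of this change between the cell types gave 4 genes without a filter on low counts and 0 to 4 when each library was left out, with 0 without CD4 wild type replicate 2 or 4, CD4 knockout replicate 2 or 4, or CD8 heterozygote replicate 1 or 2. The cause of these moves was not tested beyond the smaller number of libraries. No value changed direction past its threshold. Among single genes, 1279 values kept their side of the threshold, 70 lost it and 8 gained it. Depth limits genes such as Ndufaf3, Atp5g2 and Ndufb4, whose medians lay under 3 CPM.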
